A study of Mus musculus with 6 samples.

Results

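The genes described here encode the machinery that displays peptides to T cells on major histocompatibility complex (MHC) molecules: H2-K1, H2-D1, B2m, Tap1 and Tap2 of the class I route, and H2-Aa, H2-Ab1, H2-Eb1, Cd74 and Ciita of the class II route. Members were all probe sets whose platform annotation named 1 of these 10 genes and no other gene, which gave 32 of the 45037 probe sets analysed, for 10 of the 18193 genes with a probe set of their own. The class I chains had 15 probe sets, the peptide transporter 5, the class II chains 9 and Ciita 3. The probe sets were measured in whole oviducts of MF1 mice, an outbred stock, in 3 Wt1 ko/+ samples (heterozygous) and 3 Wt1 +/+ samples (wild type), 1 array each. Females of both genotypes had been mated with wild-type males and the tissue was taken at embryonic day 2.5. Whether a sample came from 1 animal or a pool is not given in the labels, so each p-value rests on the variation among these samples alone, and that may be technical.

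Class I molecules consist of a heavy chain, such as H2-K1 or H2-D1, bound to the light chain B2m, and are found on nearly all nucleated cells. Their peptides are made in the cytosol and carried into the endoplasmic reticulum by the transporter formed of Tap1 and Tap2. Class II molecules are found mainly on dendritic cells, macrophages and B cells; H2-Aa and H2-Ab1 are the alpha and beta chains of the I-A molecule, H2-Eb1 is the beta chain of I-E, and Cd74 is the invariant chain that holds their groove until a peptide is loaded. Ciita is the coactivator that switches class II promoters on, and interferon gamma induces it. The H2 genes are highly polymorphic, so in an outbred stock a short oligonucleotide probe can match the allele of 1 animal better than that of another.

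Promoters of 6 of the 10 genes were matched in RefSeq (build GRCm38.p6). The 250 bases before each annotated start are shown as background. Capitals mark 4 motifs searched on both strands: CTGATTGG, the octamer of the Y box that class II promoters share; TGACGTCA, the cyclic AMP response element, which the X2 box of class II promoters resembles; GGGATTCCC, the core of an NF-kappaB site; and AANNGAAA, the core bound by interferon regulatory factors. No match overlaps another.
H2-Aa (chr17:34287824-34288073, minus strand): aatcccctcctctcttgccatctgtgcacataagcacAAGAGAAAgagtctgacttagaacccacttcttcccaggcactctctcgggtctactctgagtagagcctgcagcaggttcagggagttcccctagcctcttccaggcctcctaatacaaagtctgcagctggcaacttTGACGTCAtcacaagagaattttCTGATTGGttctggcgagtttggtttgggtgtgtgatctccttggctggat
H2-Eb1 (chr17:34305617-34305866, plus strand): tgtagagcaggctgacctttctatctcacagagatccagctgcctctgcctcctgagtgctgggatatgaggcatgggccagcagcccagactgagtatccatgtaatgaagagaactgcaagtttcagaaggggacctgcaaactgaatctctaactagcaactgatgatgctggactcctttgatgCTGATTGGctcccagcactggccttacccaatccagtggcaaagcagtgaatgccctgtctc
H2-D1 (chr17:35262844-35263093, plus strand): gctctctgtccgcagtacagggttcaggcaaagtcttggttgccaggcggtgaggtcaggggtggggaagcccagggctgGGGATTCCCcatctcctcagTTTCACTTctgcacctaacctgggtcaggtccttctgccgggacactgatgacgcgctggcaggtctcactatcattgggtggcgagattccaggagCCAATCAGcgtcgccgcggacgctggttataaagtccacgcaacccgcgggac
H2-K1 (chr17:34000348-34000597, minus strand): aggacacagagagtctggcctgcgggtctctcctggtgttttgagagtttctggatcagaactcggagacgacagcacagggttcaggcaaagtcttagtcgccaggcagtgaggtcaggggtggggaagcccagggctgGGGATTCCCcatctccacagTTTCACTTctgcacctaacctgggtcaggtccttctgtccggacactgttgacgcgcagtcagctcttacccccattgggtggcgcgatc
B2m (chr2:122147437-122147686, plus strand): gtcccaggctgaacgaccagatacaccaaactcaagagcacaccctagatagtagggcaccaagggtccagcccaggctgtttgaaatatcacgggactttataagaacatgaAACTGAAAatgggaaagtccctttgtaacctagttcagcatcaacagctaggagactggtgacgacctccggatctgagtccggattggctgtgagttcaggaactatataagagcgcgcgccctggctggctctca
Tap1 (chr17:34187306-34187555, plus strand): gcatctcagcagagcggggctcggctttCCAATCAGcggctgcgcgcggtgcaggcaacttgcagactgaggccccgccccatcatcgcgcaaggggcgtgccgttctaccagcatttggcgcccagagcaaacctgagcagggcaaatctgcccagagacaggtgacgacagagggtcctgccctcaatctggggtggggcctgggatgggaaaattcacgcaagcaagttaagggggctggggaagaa
The octamer CTGATTGG stood in 4 of the 6 windows, H2-Aa, H2-Eb1, H2-D1 and Tap1, and in 3.83% of all 32851 promoter windows of this length. The element TGACGTCA stood in the H2-Aa window and in 1.55% of all windows. GGGATTCCC stood in the H2-K1 and H2-D1 windows and in 0.301% of all windows. AANNGAAA stood in the windows of H2-Aa, H2-D1, H2-K1 and B2m and in 21.3% of all windows. These matches are letters in a reference strain and say nothing of binding in these oviducts.

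The median intensity of the 6 arrays as deposited lay between 151.6 and 167.8. All 10 oviduct epithelial markers, Ovgp1, Pax8 and Foxj1 among them, averaged above the array-wide median. Wt1 itself had normalized intensities of 2231, 2472 and 3534 in heterozygous replicates 1, 2 and 3, against 4607, 4262 and 3248 in wild-type replicates 1, 2 and 3. The genotypes overlapped there, as the array labelled heterozygous replicate 3 lay above wild-type replicate 3 (log2 change -0.57, SE 0.24, limma adjusted p = 0.933). For Actb, a control whose 3' signal is set against its 5' signal as a measure of RNA integrity, the ratio was 2.49, 1.67 and 1.71 in heterozygous replicates 1, 2 and 3, and 1.74, 2.40 and 5.90 in wild-type replicates 1, 2 and 3. Wild-type replicate 3 thus stands apart. Markers of tissues around the epithelium differed in mean centred log2 level. The 6 adipocyte genes stood at 0.24, 0.92 and 0.56 in heterozygous replicates 1, 2 and 3, against -0.14, -0.98 and -0.61 in wild-type replicates 1, 2 and 3, without overlap (median log2 change 1.37). Of these 6, 4 were higher and 2 lower in heterozygous oviducts, and Lpl, the brightest, had a log2 change of -0.10. Only 3 of the 6 averaged above the array-wide median. Cidec was at 1.16 in wild-type replicate 2, near the floor of 1, and this value enters the mean level there. The summed intensity of the 6 overlapped, at 1741 to 2759 in heterozygous and 1673 to 1826 in wild-type arrays. The 8 endothelial genes stood at 0.19, 0.27 and 0.05 in heterozygous replicates 1, 2 and 3, against -0.12, -0.27 and -0.12 in wild-type replicates 1, 2 and 3 (median 0.30). The mean of the 8 smooth muscle genes stood at 0.29, 0.52 and -0.21 in heterozygous replicates 1, 2 and 3. In wild-type replicates 1, 2 and 3 it stood at -0.38, -0.18 and -0.04, so the list mean overlapped (median 0.56). Their summed intensity did not overlap, at 34165 to 46402 in heterozygous and 30709 to 33550 in wild-type arrays. Singly, 5 of the 8 were higher without overlap and 1 was lower, against 5% and 6.77% of all genes. In these 3 lists 0 genes passed, and their part in the MHC values was not tested.

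No MHC probe set passed the threshold between the genotypes. Of the 32, 0 passed at a limma adjusted p under 0.05, and 0.00666% of all probe sets did. At an unadjusted p under 0.05 the members again numbered 0, against 5.18% of all probe sets. The log2 change, heterozygous minus wild type, had a median of 0.09 over the 32 members and of -0.01 over all probe sets. It was positive in 22 members, negative in 9 and 0.00 in 1, and 48.3% of all probe sets were positive. The genotypes did not overlap in 2 of the 32, both higher in heterozygous oviducts, where 4.67% of all probe sets lay that way; 0 lay the other way, against 5.87% of all. The mean of 21 members was above the array-wide median level (7.31, log2) and that of 11 below it. Levels below are quantile-normalized intensities, and each is compared only with the same probe set on other arrays.

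**Figure D1:**
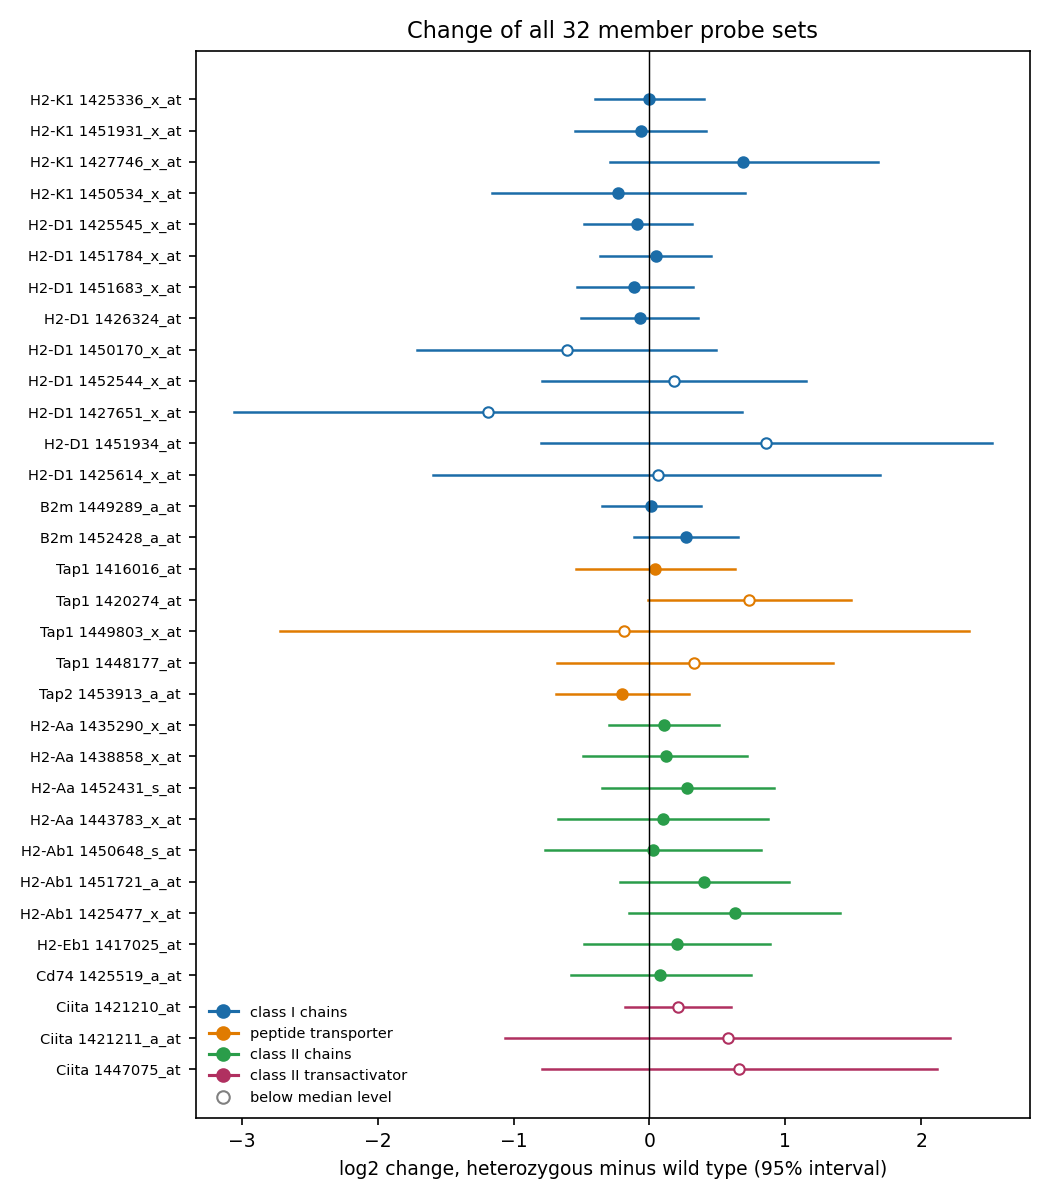
Log2 change of each of the 32 probe sets (heterozygous minus wild type, x axis) with its 95% interval from limma; open points mark probe sets whose mean lies below the median level. Every interval includes 0, and the widest belong to dim probe sets of H2-D1 and Tap1.

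At their brightest probe sets the class I heavy chains overlapped between the genotypes. H2-K1 (1425336_x_at) had intensities of 6119, 7119 and 5571 in heterozygous replicates 1, 2 and 3, and 5626, 6461 and 6658 in wild-type replicates 1, 2 and 3. The ranges lay across each other, and the log2 change was 0.00 (SE 0.16, 95% interval -0.40 to 0.40, adjusted p = 0.999). H2-D1 (1425545_x_at) had 4456, 5149 and 3905 in heterozygous replicates 1, 2 and 3, and 4456, 4854 and 4945 in wild-type replicates 1, 2 and 3. Its log2 change was -0.09 (95% interval -0.48 to 0.31, adjusted p = 0.960). Heterozygous replicate 2 was the highest array and heterozygous replicate 3 the lowest for both heavy chains.

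B2m, the light chain shared by all class I molecules, is the member on chromosome 2, which also carries Wt1; the H2 and Tap genes lie on chromosome 17, Ciita on 16 and Cd74 on 18. At 1449289_a_at B2m had 9542, 11045 and 9356 in heterozygous replicates 1, 2 and 3, and 9529, 9327 and 10797 in wild-type replicates 1, 2 and 3. The genotypes overlapped, with a log2 change of 0.01 (95% interval -0.35 to 0.38, adjusted p = 0.993). At 1452428_a_at it had 9495, 10659 and 8789 in heterozygous replicates 1, 2 and 3, against 8018, 8682 and 7270 in wild-type replicates 1, 2 and 3. Each heterozygous array lay above every wild-type array there, though they overlapped with the scaling as deposited. The difference was 1.21-fold (log2 change 0.27, SE 0.15, 95% interval -0.11 to 0.65) and did not pass (adjusted p = 0.933).

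Further probe sets of the heavy chains differed more between arrays. H2-K1 (1427746_x_at) had 1755, 3593 and 1808 in heterozygous replicates 1, 2 and 3, and 1817, 1627 and 909 in wild-type replicates 1, 2 and 3. Heterozygous replicate 2 was far above the rest and wild-type replicate 3 far below, and the change was 0.69 on the log2 scale with an SE of 0.40 (adjusted p = 0.933). H2-K1 (1450534_x_at) ran the other way in wild-type replicate 3, with 834 there, 318 and 466 in wild-type replicates 1 and 2, and 357 to 497 in heterozygous arrays. Its log2 change was -0.23 (SE 0.38). The remaining bright probe sets gave -0.06 for H2-K1 (1451931_x_at) and 0.05, -0.11 and -0.07 for H2-D1 (1451784_x_at, 1451683_x_at and 1426324_at). The 5 dim H2-D1 probe sets, between 7.65 and 156, gave log2 changes from -1.19 to 0.86, with intervals reaching from -3.06 to 2.52. Over the 15 class I chain probe sets the median log2 change was 0.00, with 7 positive and 7 negative.

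The peptide transporter genes did not separate the genotypes either. Tap1 (1416016_at) had 443, 484 and 455 in heterozygous replicates 1, 2 and 3, against 326, 474 and 578 in wild-type replicates 1, 2 and 3. The heterozygous arrays lay inside the wild-type range, and the log2 change was 0.04 (95% interval -0.54 to 0.63, adjusted p = 0.987). Its other 3 probe sets were dim, between 3.43 and 47.3, with log2 changes from -0.19 to 0.73. The last of these, for 1420274_at, had the smallest p of any member and did not pass (limma adjusted p = 0.933). Tap2 (1453913_a_at) had 507, 529 and 445 in heterozygous replicates 1, 2 and 3, and 481, 712 and 529 in wild-type replicates 1, 2 and 3. Its log2 change was -0.20 (95% interval -0.69 to 0.29, adjusted p = 0.933).

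All 9 class II chain probe sets had a positive log2 change, between 0.03 and 0.63 with a median of 0.12, and 0 passed. H2-Aa, whose promoter above holds the octamer and TGACGTCA, had 7838, 8967 and 8624 in heterozygous replicates 1, 2 and 3, and 7043, 7514 and 9186 in wild-type replicates 1, 2 and 3 (1435290_x_at). Wild-type replicates 1 and 2 were low and wild-type replicate 3 was the highest array. The log2 change was 0.11 (95% interval -0.30 to 0.51, adjusted p = 0.949), and its other 3 probe sets gave 0.12, 0.28 and 0.10.

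H2-Eb1 (1417025_at) had 3089, 4261 and 3062 in heterozygous replicates 1, 2 and 3, against 2147, 3135 and 3936 in wild-type replicates 1, 2 and 3. Its log2 change was 0.20 (95% interval -0.48 to 0.89, adjusted p = 0.945). Cd74 (1425519_a_at) had 4114, 5281 and 3681 in heterozygous replicates 1, 2 and 3, and 2917, 4551 and 5080 in wild-type replicates 1, 2 and 3. As with H2-Eb1, wild-type replicate 1 was the lowest array and heterozygous replicate 2 the highest. The Cd74 change was 0.08 (95% interval -0.58 to 0.75, adjusted p = 0.978).

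H2-Ab1 had log2 changes from 0.03 to 0.63 at its 3 probe sets, with overlapping 95% intervals. At 1450648_s_at it had 1717, 2406 and 1651 in heterozygous replicates 1, 2 and 3, and 1252, 1943 and 2647 in wild-type replicates 1, 2 and 3, a log2 change of 0.03 (95% interval -0.77 to 0.82). At 1425477_x_at it had 500, 976 and 476 in heterozygous replicates 1, 2 and 3, against 348, 436 and 418 in wild-type replicates 1, 2 and 3. Every heterozygous array was above every wild-type array there, a 1.54-fold difference (log2 change 0.63, SE 0.32, 95% interval -0.15 to 1.40) that did not pass (adjusted p = 0.933). Without heterozygous replicate 2 this change was 0.29. The third, 1451721_a_at, annotated to the same source sequence as 1425477_x_at, had 906, 1575 and 1024 in heterozygous replicates 1, 2 and 3, and 790, 998 and 799 in wild-type replicates 1, 2 and 3, with overlap and a log2 change of 0.40.

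The direction shared by the class II chains rested on single arrays. Without wild-type replicate 1, 4 of the 9 were positive, with a median of -0.03. Without heterozygous replicate 2, 6 of the 9 were, with a median of 0.05. Leaving out wild-type replicate 3 gave a median of 0.35. Among the 3 arrays of lower Actb ratio (heterozygous replicates 2 and 3, wild-type replicate 1) all 9 were positive, with a median of 0.67. Wild-type replicate 1, the only wild-type array there, was the lowest array for all 9, so this count follows from that array. Among the 3 arrays of higher ratio (heterozygous replicate 1, wild-type replicates 2 and 3) 2 of 9 were positive, with a median of -0.19. The same medians over all probe sets were -0.01 and 0.00. For the class I chains they were 0.09 and -0.14. Each ratio class held 1 genotype as a single array, so the ratio and that array cannot be told apart.

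Ciita, the class II coactivator, was dim at all 3 probe sets, below the array-wide median. The brightest, 1421210_at, had 112, 95.6 and 103 in heterozygous replicates 1, 2 and 3, and 78.8, 90.5 and 100 in wild-type replicates 1, 2 and 3. Its log2 change was 0.21 (95% interval -0.18 to 0.60, adjusted p = 0.933), and the others gave 0.58 and 0.66 with SEs of 0.66 and 0.59. Wild-type replicate 3, high for most class II chains, was the lowest array for both dimmer Ciita probe sets, at 13.8 and 5.27. H2-Ea, the alpha chain that pairs with H2-Eb1 and is not transcribed in several inbred mouse haplotypes, lay below the array-wide median on every array at each of its 3 probe sets. Its brightest, 1422891_at, had 37.5, 39.6 and 57.8 in heterozygous replicates 1, 2 and 3, and 36.0, 45.9 and 60.1 in wild-type replicates 1, 2 and 3.

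**Figure D2:**
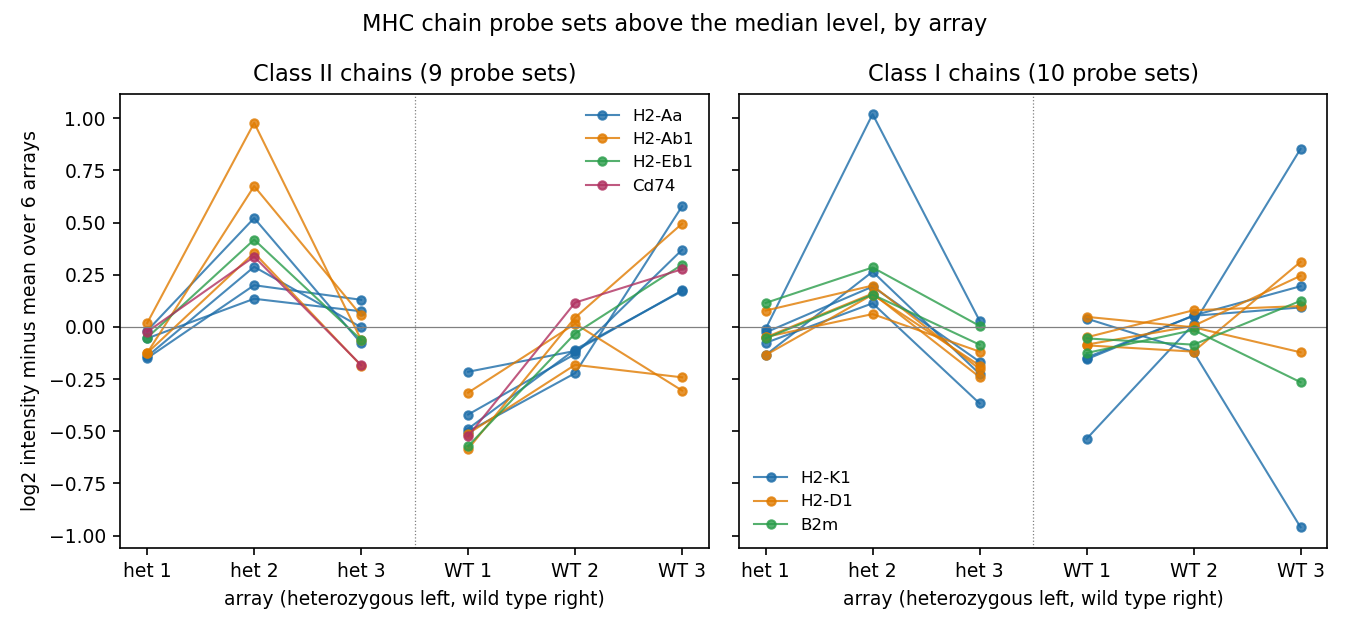
Log2 intensity of each class II chain (left) and class I chain (right) probe set above the median level, minus its mean over the 6 arrays (y axis), in the 3 heterozygous and 3 wild-type arrays; lines join values of 1 probe set. Wild-type replicate 1 is lowest for all 9 class II probe sets; heterozygous replicate 2 is above the mean throughout, and wild-type replicate 3 is above it except for 2 probe sets of H2-Ab1 and 1 each of H2-K1, H2-D1 and B2m.

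For the class II chains, differences between arrays of 1 genotype were larger than those between genotypes. The 4 class II genes together, each by its brightest probe set centred on its own mean, stood at -0.07, 0.31 and -0.09 in heterozygous replicates 1, 2 and 3, and at -0.47, 0.01 and 0.31 in wild-type replicates 1, 2 and 3 (log2 scale). Wild-type replicate 1 was the lowest array for 9 of 9 class II probe sets, and for 19.2% of all 22306 probe sets above the median. Heterozygous replicate 2 or wild-type replicate 3 was the highest for 9 of 9 class II and 10 of 10 bright class I chain probe sets. The same held for 42.3% of all probe sets above the median. The lowest array was not shared by the 2 classes. Heterozygous replicate 3 was lowest for 7 of 10 bright class I and 0 of 9 class II probe sets, and for 15.8% of all probe sets above the median. The class I genes varied over a narrower span, at -0.04, 0.17 and -0.16 in heterozygous replicates 1, 2 and 3, and -0.08, 0.01 and 0.11 in wild-type replicates 1, 2 and 3. Probe sets of a gene and genes of a cell type are not independent, so these counts describe the arrays.

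By list mean, pan-leukocyte and macrophage markers had the same lowest array and the same high arrays as the class II chains. The 10 pan-leukocyte genes stood at -0.03, 0.19 and -0.06 in heterozygous replicates 1, 2 and 3, and at -0.28, -0.02 and 0.20 in wild-type replicates 1, 2 and 3, measured in the same way. The 12 macrophage genes stood at -0.08, 0.24 and -0.05 in heterozygous replicates 1, 2 and 3, and at -0.21, -0.02 and 0.12 in wild-type replicates 1, 2 and 3. The list runs from the receptor Csf1r to the complement gene C1qa. Its summed intensity was 12599 to 15594 in heterozygous and 11289 to 14802 in wild-type arrays. Single genes did not all keep the order of the list mean. Csf1r was lowest in wild-type replicate 2 (2899) and highest in wild-type replicate 3 (3941). C1qa was lowest in heterozygous replicate 3 (1003) and highest in heterozygous replicate 2 (1616). In such whole-tissue RNA, fewer cells of a type and less RNA per cell cannot be told apart. The part of leukocyte content in the class II levels was not tested.

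By mean centred level the other leukocyte lists had another order of arrays. The 9 dendritic cell genes, among them Itgax, summed to 1734 to 2052 in heterozygous and 1531 to 2362 in wild-type arrays. The 9 B cell genes summed to 914 to 1034 in heterozygous and 805 to 1136 in wild-type arrays, and Cd79a, of the B cell receptor, was at 53.9 to 88.9 in heterozygous and 55.7 to 93.2 in wild-type arrays. The 11 T and natural killer cell genes summed to 1107 to 1142 in heterozygous and 1010 to 1448 in wild-type arrays. By mean centred level, dendritic and lymphocyte lists were highest in wild-type replicate 3, without the heterozygous replicate 2 peak of macrophage genes. By summed intensity the dendritic list was highest in wild-type replicate 3 (2362) and next in heterozygous replicate 2 (2052). Only 4 of 9 dendritic, 1 of 9 B cell and 1 of 11 T and natural killer cell genes averaged above the array-wide median. Of 7 plasma cell genes 4 were higher and 3 lower in heterozygous oviducts, with a median log2 change of 0.02, and their mean centred levels overlapped (-0.04 to 0.12 in heterozygous and -0.22 to 0.10 in wild-type arrays). Their summed intensity, 30383 to 31457 in heterozygous and 23515 to 25976 in wild-type arrays, did not overlap. Of the 7 genes 2, Igha and Jchain, did not overlap, both higher in heterozygous arrays, as were 5% of all genes. Both count in that sum. Igha, the IgA heavy chain, had 9268 to 11089 in heterozygous and 5927 to 7707 in wild-type arrays, and Jchain, which joins IgA into dimers, had 5680 to 6703 in heterozygous and 2765 to 3837 in wild-type arrays. Both were singled out after their values were seen, and neither passed (limma over genes, adjusted p = 0.559 and 0.501). In these leukocyte lists 0 genes passed over all genes.

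**Figure D3:**
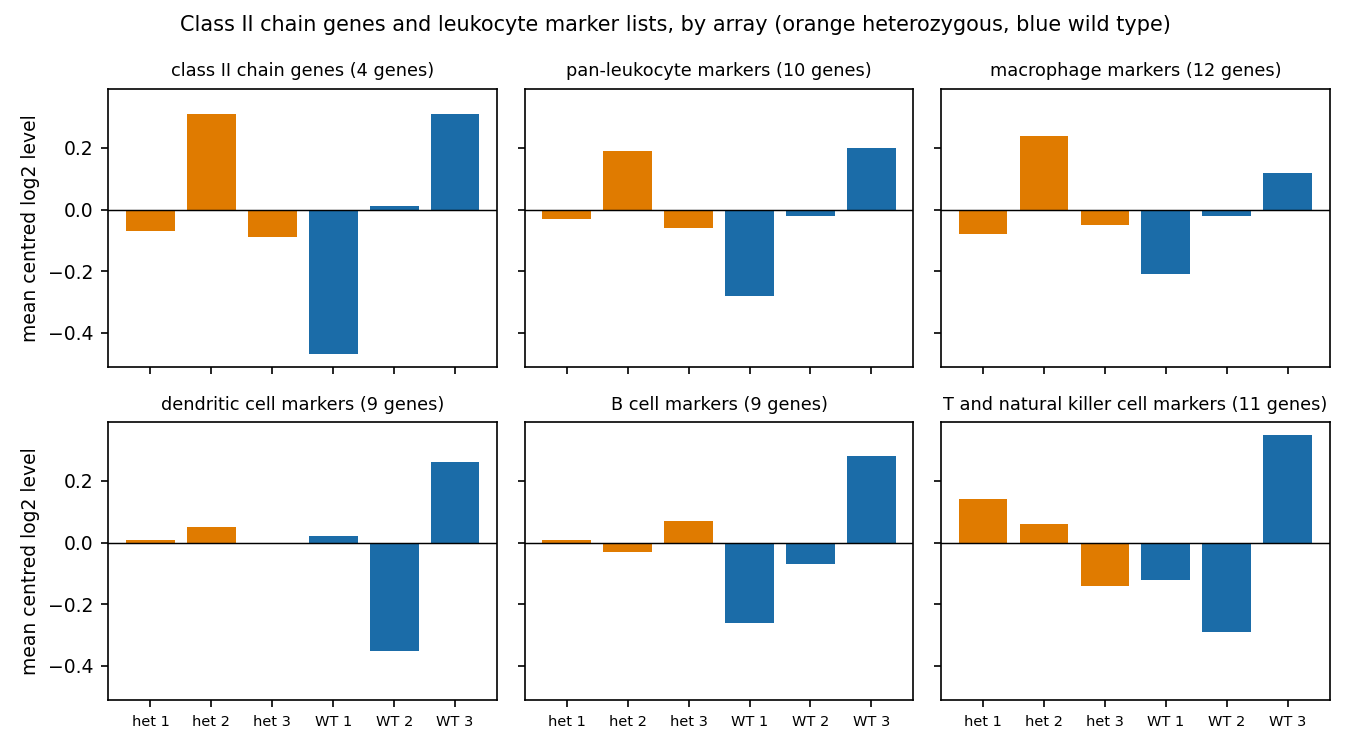
Mean centred log2 level (y axis) of the class II chain genes and of 5 leukocyte marker lists in each array, each gene by its brightest probe set; orange bars are heterozygous and blue bars wild-type arrays. By this mean, class II, pan-leukocyte and macrophage genes are lowest in wild-type replicate 1 and high in heterozygous replicate 2 and wild-type replicate 3. The other lists lack the high bar in heterozygous replicate 2.

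Probe sets of the same gene were next compared within arrays, since outbred animals can carry alleles that hybridize unequally. For each gene, every probe set above the median was set against the gene's brightest, as a log2 difference in each array, and only its variation between arrays was read. This gave 12 pairs for 5 MHC genes and 7622 pairs over 4812 genes in all. The widest variation was that of H2-K1 (1427746_x_at), at -1.80, -0.99 and -1.62 in heterozygous replicates 1, 2 and 3, and -1.63, -1.99 and -2.87 in wild-type replicates 1, 2 and 3. Heterozygous replicate 2 was thus high and wild-type replicate 3 low, a span of 1.89, and 5.81% of all pairs had a span as wide. Without wild-type replicate 3 the span was 1.00, which 11.0% of pairs reached.

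Both H2-Ab1 probe sets from the shared source sequence had the same high and low arrays. The difference for 1425477_x_at was -1.78, -1.30 and -1.80 in heterozygous replicates 1, 2 and 3, and -1.85, -2.16 and -2.66 in wild-type replicates 1, 2 and 3, a span of 1.36 that 13.9% of pairs reached. For 1451721_a_at the span was 1.12, and 0.35 without wild-type replicate 3. These 3 pairs of 12 were highest in heterozygous replicate 2 and lowest in wild-type replicate 3, as were 12.3% of all pairs. The other 9 pairs had spans from 0.21 to 1.15, where the median over all pairs was 0.71. Between the genotypes the pair differences were 0.69 (SE 0.36) for H2-K1 1427746_x_at and 0.60 (SE 0.26) for H2-Ab1 1425477_x_at, and 0 of the 7622 pairs passed (limma, adjusted p = 0.942 for both).

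Wild-type replicate 3 was the lowest array for 41.2% of all pairs and for 5 of the 12 MHC pairs, and it had the highest Actb ratio. It was the highest array for 21.3% of all pairs. Among the MHC pairs it was highest for H2-Aa 1438858_x_at and 1443783_x_at, H2-D1 1451683_x_at and 1426324_at, and H2-K1 1451931_x_at and 1450534_x_at. Both B2m probe sets also parted there, with a difference of -0.57 in wild-type replicate 3 and of -0.25 to -0.01 elsewhere. The 3 H2-K1 and H2-Ab1 differences were highest in heterozygous replicate 2, whose Actb ratio was 1.67, with 1.71 to 5.90 on the other arrays. The parts of allele sequence and of RNA integrity in these differences were not tested, as H2 haplotypes and probe sequences were not used here.

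**Figure D4:**
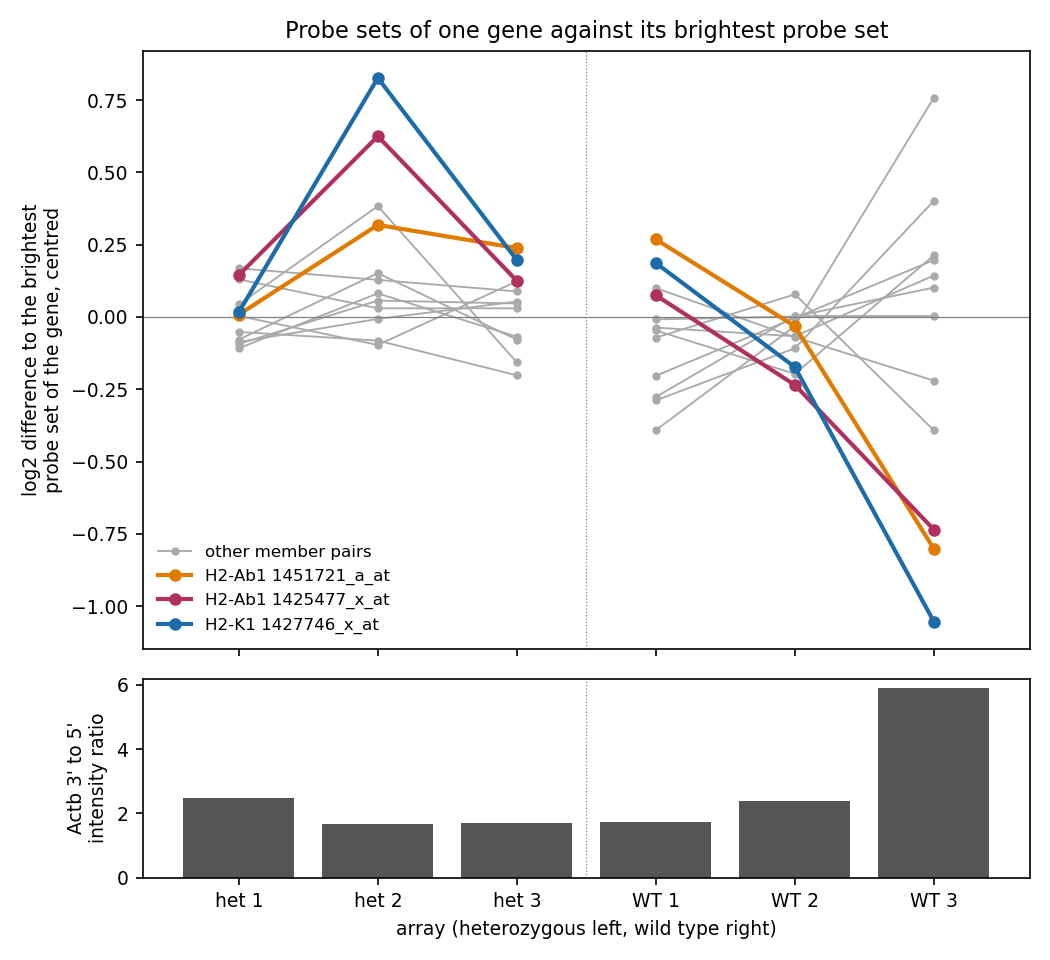
Upper panel: log2 difference of each MHC probe set to the brightest probe set of its gene, minus its mean over the 6 arrays (y axis), for 12 pairs; the 3 coloured pairs are highest in heterozygous replicate 2 and lowest in wild-type replicate 3. Lower panel: ratio of 3' signal to 5' signal for Actb (y axis), 5.90 in wild-type replicate 3 and 1.67 to 2.49 elsewhere.

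Genes around the members in the class I route showed no difference between the genotypes that passed. Of 32 listed names, among them tapasin (Tapbp), the immunoproteasome subunits Psmb8 and Psmb9, the coactivator Nlrc5 and other H2 genes, 21 were measured by a probe set of their own. Of these, 13 were higher and 8 lower in heterozygous oviducts, with a median log2 change of 0.02, against -0.03 over all 18193 genes, of which 45% were higher. At an adjusted p under 0.05, 0 passed, against 0.0165% of all genes, and at an unadjusted p under 0.05, 0 did, against 6.44%. The genotypes overlapped in all 21, while 11.8% of all genes did not overlap. By the naming rule no gene of this list is given with values.

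In the class II route 22 of 26 listed names were measured, 8 higher and 14 lower, with a median of -0.07. At an adjusted p under 0.05, 0 passed, against 0.0165% of all genes. At an unadjusted p under 0.05 there were 3, against 6.44% of all genes. The genotypes did not overlap in 1 that was higher and 3 that were lower, against 5% and 6.77% of all genes. Rfxap, a subunit of the RFX factor that binds the X box of class II promoters, had 391, 361 and 382 in heterozygous replicates 1, 2 and 3, against 499, 517 and 510 in wild-type replicates 1, 2 and 3 (1455303_at). The genotypes did not overlap (log2 change -0.43, SE 0.13, limma adjusted p = 0.858). Its other probe set gave -0.24, with overlap.

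H2-Oa and H2-Ob form the H2-O dimer, which in B cells and some other cells restrains the peptide exchange factor H2-DM, and they stood on opposite sides. H2-Ob (1440837_at) had 532, 359 and 524 in heterozygous replicates 1, 2 and 3, against 613, 723 and 749 in wild-type replicates 1, 2 and 3 (log2 change -0.58, SE 0.21). H2-Oa (1419297_at) had 176, 178 and 212 in heterozygous replicates 1, 2 and 3, against 108, 143 and 151 in wild-type replicates 1, 2 and 3 (log2 change 0.51, SE 0.19). Neither overlapped between genotypes and neither passed, at an adjusted p of 0.933 each. Both were chosen for a small p and for not overlapping among the genes of the list, as was Rfxap. Their absence of overlap was thus set by the choice. H2-Oa met the level condition only through its heterozygous mean, 7.56 on the log2 scale. Its wild-type mean was 7.05, and the array-wide median was 7.31.

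Of 24 interferon gamma signalling genes 22 were measured, 9 higher and 13 lower, with a median of -0.07, where 45% of all genes were higher, and 0 passed. At an unadjusted p under 0.05 there were 2, against 6.44% of all genes. The genotypes did not overlap in 2 that were higher and 1 that was lower, against 5% and 6.77% of all genes. Irgm1, an interferon-induced GTPase, had 739, 823 and 837 in heterozygous replicates 1, 2 and 3, against 1099, 1032 and 1383 in wild-type replicates 1, 2 and 3, without overlap (log2 change -0.54, SE 0.17, adjusted p = 0.878). Irf1, a transcription factor that activates class I and Tap1 promoters, had 954, 1000 and 1278 in heterozygous replicates 1, 2 and 3, against 717, 948 and 921 in wild-type replicates 1, 2 and 3 (log2 change 0.32, SE 0.20, adjusted p = 0.933). Jak1, a kinase of the receptor, stood at 0.36 at its brightest probe set, without overlap, and at 0.08 and 0.50 at the others, with overlap. The brightest Jak1 probe set stood at 0.16 without wild-type replicate 3. Irgm1, Irf1 and Jak1 were chosen by the same rule, so their absence of overlap was set by the choice.

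The probe sets most like the class II chains over the 6 arrays were found by the root-mean-square difference of centred log2 levels, among 19312 probe sets above the median that name 1 gene. They were those of Col5a3, a collagen chain (0.053), Tnrc18 (0.064), Tyrobp, a signalling adaptor of myeloid and natural killer cells (0.065), Pfkm, a phosphofructokinase (0.069), and C1qc, a complement subunit made by macrophages (0.070), where the median over the candidates was 0.321. Col5a3 had 496, 573 and 461 in heterozygous replicates 1, 2 and 3, and 346, 506 and 614 in wild-type replicates 1, 2 and 3. Tnrc18 had 1634, 1911 and 1487 in heterozygous replicates 1, 2 and 3, and 1066, 1575 and 2003 in wild-type replicates 1, 2 and 3. Tyrobp had 826, 1052 and 852 in heterozygous replicates 1, 2 and 3, and 683, 848 and 1155 in wild-type replicates 1, 2 and 3. Pfkm had 1013, 1213 and 955 in heterozygous replicates 1, 2 and 3, and 800, 1078 and 1393 in wild-type replicates 1, 2 and 3. C1qc had 705, 974 and 693 in heterozygous replicates 1, 2 and 3, and 592, 839 and 981 in wild-type replicates 1, 2 and 3. With 6 arrays and this many candidates some close matches will occur in any case.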

How the data were processed

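Each array came as linear intensity values deposited by the authors, 1 for each of 45101 probe sets; the sources used here do not name the program that summarised the probes. The mean after trimming 2% at each end was 500.002 on all 6 arrays, so the deposited values had been scaled, as found from the values. The 64 control probe sets were left out, intensities under 1 were set to 1, and log2 values were quantile normalized, because array medians differed by 0.147. Of the rest, 34945 named 1 gene, 932 several and 9160 are unnamed here. Differences were fitted with limma 3.58.1 (R 4.3.3; lmFit, eBayes) over 45037 probe sets, or 18193 genes by their brightest probe set for lists, two-sided, with Benjamini-Hochberg adjustment at 0.05. Numbers in parentheses after a gene are probe set identifiers. Named pathway genes were given with values of the fit over probe sets, and Igha and Jchain with those of the fit over genes. In the limma fit over genes the adjusted p was 0.542 for Rfxap, 0.698 for H2-Oa and H2-Ob, and 0.61 for Irgm1. The number of arrays limits the precision.

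The members and lists were chosen with earlier results of these data known. Named genes were all members and, per pathway list, up to 4 of smallest p without overlap and with the higher of both group means above the array-wide median. The within-gene comparison was chosen after the data were seen. Replicate numbers did not pair the samples (correlations of deviations -0.43, 0.07 and -0.25). Scripts were tested on simulated data.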

Additional observations from a re-analysis of the deposited data

How the results depend on the processing

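Of the member probe sets 0 passed in any of the 14 other limma fits over probe sets, or over genes; all 32 were tested in each except the filter on dim probe sets, which tested 21, and the fit over genes, which took 1 for each of the 10 genes; together with Wt1 and the 6 named pathway probe sets the lowest adjusted p in those fits was 0.287. The count over all probe sets, 3, was 14 with array weights, 1 with log2 of the intensity plus 16, 0 with the replicate number as a block (replicate block), 0 with the Actb ratio added as a covariate and 0 with its class as a block; it was 0 to 1 when an array was left out. Under the replicate block the median was 0.12 for the class II and 0.00 for the class I chains, and no member's call changed. The class II median was 0.32 with the Actb covariate, 0.22 with array weights and 0.19 with the class block. Without probe sets ending in _x_at, _s_at or _a_at, it was 0.20 over the 1 left, and the class I median was 0.39 over the 2 left, of which 1451934_at is dim. Keeping _a_at, which marks transcripts of 1 gene, was chosen after seeing the data and gave 0.20 over 3 class II and 0.14 over 4 class I probe sets. The direction turned for 17 member probe sets, all with small or uncertain changes: the change was -0.04 with the scaling as deposited for B2m 1449289_a_at; 0.05, -0.06 and -0.03 with array weights for H2-D1 1426324_at, H2-D1 1452544_x_at and Ciita 1421211_a_at; and 0.01, 0.18, 0.06, -0.49 and -0.01 with the Actb covariate for H2-K1 1451931_x_at, H2-K1 1450534_x_at, H2-D1 1426324_at, H2-D1 1425614_x_at and Ciita 1447075_at. The class block gave -0.49 for H2-D1 1425614_x_at. With 1 array left out the class II median ranged from -0.03 to 0.35 and the class I median from -0.13 to 0.05. Ranges that crossed 0 were -0.06 to 0.08 for B2m 1449289_a_at, -0.16 to 0.24 for Cd74 1425519_a_at, -0.10 to 1.07 for Ciita 1421211_a_at, -0.06 to 0.33 and -0.12 to 0.41 for H2-Aa 1438858_x_at and 1443783_x_at, -0.26 to 0.28 for H2-Ab1 1450648_s_at and -0.03 to 0.40 for H2-Eb1 1417025_at. They were -0.19 to 0.01, -0.29 to 0.64, -0.15 to 0.07, -0.04 to 0.16 and -0.26 to 0.44 for H2-D1 1425545_x_at, 1425614_x_at, 1426324_at, 1451784_x_at and 1452544_x_at. They were -0.55 to 0.15 and -0.21 to 0.03 for H2-K1 1450534_x_at and 1451931_x_at, and -0.18 to 0.23 and -1.09 to 0.46 for Tap1 1416016_at and 1449803_x_at. The range also crossed 0, at -0.09 to 0.08, for H2-K1 1425336_x_at, whose change of 0.00 had no direction to turn. The cause of these turns was not tested. Probe sets below the median may lie near background, since no detection calls were used.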

Other observations

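Another 3 probe sets named a listed gene together with other genes and were not members. The probe set shared by H2-K1 and H2-D1, 1424948_x_at, had intensities of 740, 990 and 631 in heterozygous replicates 1, 2 and 3, and 644, 1050 and 1017 in wild-type replicates 1, 2 and 3, a log2 change of -0.19. The one shared by H2-Q5 and H2-K1, 1451593_at, had 169, 159 and 165 in heterozygous replicates 1, 2 and 3, and 134, 107 and 240 in wild-type replicates 1, 2 and 3, a log2 change of 0.12. The one naming H2-D1, H2-Q2 and Gm38417, 1422348_at, was dim, at 21.7 to 38.2 in heterozygous and 8.72 to 54.0 in wild-type arrays. The genotypes overlapped in all 3, and none passed (limma adjusted p = 0.934 to 0.971).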
